A study of Mus musculus with 28 samples.

Results

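Solute carriers are membrane proteins that move sugars, amino acids, nucleotides, ions, metals and vitamins, and their genes carry the prefix Slc with a family number. Members were all probe sets whose single gene symbol in the array annotation starts with Slc and a digit, except those of Slc10a1, Slc25a20 and Slc7a2, that exceeded the median of the array on 2 or more arrays. Of 180 such probe sets for 148 genes on the array, 114 probe sets for 101 genes were kept, and 66 were too dim. The whole series held 12422 probe sets, of which 7261 passed the same filter. At the edge of the filter, Slc18a3, Slc22a6, Slc25a4 and Slc38a2 were kept with 3 arrays over the median, and Slc34a1, Slc35a1 and Slc7a7 were left out with 1. Of the kept probe sets, 85 lay above the median of 4.10 in all 28 arrays. The array median and every level given here are on the log2 scale of the deposited signals after scaling between arrays. Slc9a3r1 and Slc9a3r2 fit the rule by name but are adaptor proteins that bind sodium-proton exchangers, and Slc66a2 belongs to none of the substrate classes used here.

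The study measured liver RNA of mice with and without Aag, the DNA glycosylase that removes alkylated bases, before and after the alkylating agent methyl methanesulfonate (MMS). The 28 arrays fell into 10 groups. WT mice were untreated (n = 3) or taken 6 h (n = 2), 12 h (n = 3), 24 h (n = 2) or 48 h (n = 2) after MMS. Aag null mice were untreated (n = 4) or taken 6 h (n = 3), 12 h (n = 2), 24 h (n = 4) or 48 h (n = 3) after MMS. The labels used here give no strain, age, dose or route, and they do not say that replicates came from separate animals, so p-values measure only the spread between these samples. Each array was an Affymetrix MG-U74Av2 chip with 1 value per probe set.

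The liver uses solute carriers of nearly every class. Facilitative glucose carriers and the endoplasmic reticulum carrier of glucose 6-phosphate serve glucose output, mitochondrial carriers of the Slc25 family supply the urea cycle and exchange nucleotides and organic acids across the inner membrane, and Slc27 proteins take up and activate fatty acids. Nucleotide sugar carriers of the Slc35 family feed glycosylation and glucuronidation in the Golgi and endoplasmic reticulum.

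The liver label was borne out by its markers, since albumin (Alb) lay between 12.1 and 12.6 and apolipoprotein A1 (Apoa1) between 12.0 and 12.5 in all arrays. Ttr, also on the hepatocyte list, ranged more widely, from 7.98 to 9.29. Of the 5 kept hepatocyte probe sets, 0 were higher and 1 lower in each WT response. The 7 kept stellate cell probe sets, the 10 kept Kupffer cell probe sets and the 6 kept erythroid probe sets had 1 higher and 2 lower, 2 higher and 3 lower, and 3 higher and 1 lower in WT at 12 h. The other WT times differed for the Kupffer cell list, with 3 higher and 1 lower at 6 h and 1 higher and 0 lower at 24 and 48 h. Of 3 kept endothelium probe sets, 0 were higher and 1 lower at 6, 12 and 24 h. The summed linear signal of the erythroid list was 704 to 1442 in untreated WT arrays and 451 to 609 in treated WT arrays, and that of the Kupffer cell list was 354 to 458 and 333 to 405. For the endothelium list it was 320 to 354 in untreated WT, 229 to 279 at 6, 12 and 24 h, and 299 to 324 at 48 h. In bulk liver, fewer cells of a type and less RNA per cell cannot be told apart, and the part of these markers in the results on carriers was not tested. Mpg, the mouse symbol of the deleted gene, was near the floor in both genotypes, at 2.38 to 2.87 in WT and 2.27 to 2.60 in Aag null arrays, so the array does not check the genotype labels.

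Arrays stood apart in 3 ways that touch the results. The 9 sense probe sets of the hybridization controls, which report RNAs spiked into the sample, were high on 5 arrays (all 3 untreated WT arrays and untreated Aag null replicates 3 and 4) and lower on the other 23. The 3′ minus 5′ signal of Gapdh, a sign of RNA integrity, was 0.63 to 0.92 on those 5 arrays and -0.37 to 0.21 on the rest. All untreated WT arrays are in that high set and all treated WT arrays are in the low set, so the set and the treatment can be separated in WT only through the untreated Aag null arrays, which lie in both sets. The 2 arrays at 6 h in WT correlated at 0.836, while WT 6 h replicate 1 and Aag null 6 h replicate 1 correlated at 0.983. Untreated Aag null replicate 3 and Aag null 24 h replicates 1 and 2 carried female-typical liver transcripts (Cyp2b9 above Hsd3b5). None of those 3 arrays is WT, so leaving them out left the WT changes as they were, but it moved the spread that the fit shares. The WT counts of called carriers were then 19, 19, 13 and 13 at 6, 12, 24 and 48 h, against 21, 22, 16 and 19 with them. The calls lost were Slc12a7 and Slc39a1 at 6 h, Slc25a51, Slc27a3 and Slc6a3 at 12 h, Slc16a8, Slc27a3 and Slc9a3r1 at 24 h, and Slc25a1, Slc25a3, Slc25a15, Slc25a44, Slc25a51 and Slc26a1 at 48 h, with adjusted p from 0.051 (Slc25a44) to 0.074 (Slc39a1).

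A probe set was called where the limma fit over all 7261 probe sets gave a Benjamini-Hochberg adjusted p under 0.05. In WT, 12 carrier probe sets were higher and 9 lower at 6 h, against 8.26% higher and 10.1% lower among all probe sets. At 12 h, 13 were higher and 9 lower, against 11.6% and 10.7%. At 24 h, 11 were higher and 5 lower, against 7.2% and 8.17%. At 48 h, 9 were higher and 10 lower, against 7.4% and 9.21%. The carriers' shares ran from 4.39% to 11.4%, near those of all probe sets, and the median change of the 114 members was 0.03, 0.08, 0.05 and 0.00 against 0.02, 0.05, 0.04 and 0.03 over all probe sets. The 4 WT responses share the same 3 untreated arrays. On the values as deposited, without scaling, the WT split was 12 higher and 6 lower at 6 h, 27 and 6 at 12 h, 13 and 3 at 24 h, and 11 and 3 at 48 h, while the median of all probe sets moved by 0.12 to 0.15. Leaving out single arrays gave 14 members called (without WT untreated replicate 1) to 30 (without WT 6 h replicate 2) at 6 h, 13 (without WT 12 h replicate 1) to 26 at 12 h, 7 (without WT 24 h replicate 2) to 17 at 24 h, and 9 (without WT 48 h replicate 1) to 14 at 48 h. The last 3 of these highest counts came without WT untreated replicate 3. With array weights, or with only the groups compared in the fit, every WT 6 h call was lost, as listed at the end.

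In Aag null mice few carriers passed the test. At 6 h, 0 were higher and 2 lower (0.441% and 0.551% of all probe sets). At 12 h, 1 was higher and 0 lower (0.0826% and 0.22%). At 24 h, 1 was higher and 0 lower (0.62% and 0.675%). At 48 h, 0 were called (0.358% and 0.468%), with 19 of the 114 at an unadjusted p under 0.05 in the same limma fit, against 1268 of all 7261 probe sets. In these 4 responses, the counts ran from 0 up to 5, 3, 8 and 7 when single arrays were left out. The highest counts came without Aag untreated replicate 1, and at 6 and 12 h also without Aag untreated replicate 2. The count was 0 at 6 h without Aag untreated replicate 3 or 4 or any 6 h array, at 12 h without either 12 h array, and at 24 h without Aag untreated replicate 3 or 4 or any 24 h array. At 48 h it was 0 without any single array except Aag untreated replicate 1. With array weights the Aag null counts were higher at every time, as listed at the end. The share of all probe sets called in that fit is not given here, so its counts are not read as results about carriers. Untreated Aag null liver had 2 carriers higher and 3 lower than untreated WT (2.18% and 2.77% of all probe sets), and leaving out single arrays gave 2 (without WT untreated replicate 1) to 7 (without Aag untreated replicate 4). In all, 38 probe sets of 37 genes were called in at least 1 of 13 comparisons, 37 of them in a WT response, and 76 were never called. The 9 called in all 4 WT responses belonged to Slc5a6, Slc20a1, Slc27a1, Slc38a4 and Slc25a51, all higher, and to Slc46a1, Slc44a1, Slc23a3 and Slc25a5, all lower. The other kept probe sets of Slc25a51, Slc23a3 and Slc25a5 were not called in all 4. Matching totals over all probe sets were not counted, so these totals are not read as results about carriers. The 4 WT responses share their untreated arrays, so calls at all 4 times are not separate results.

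**Figure D1:**
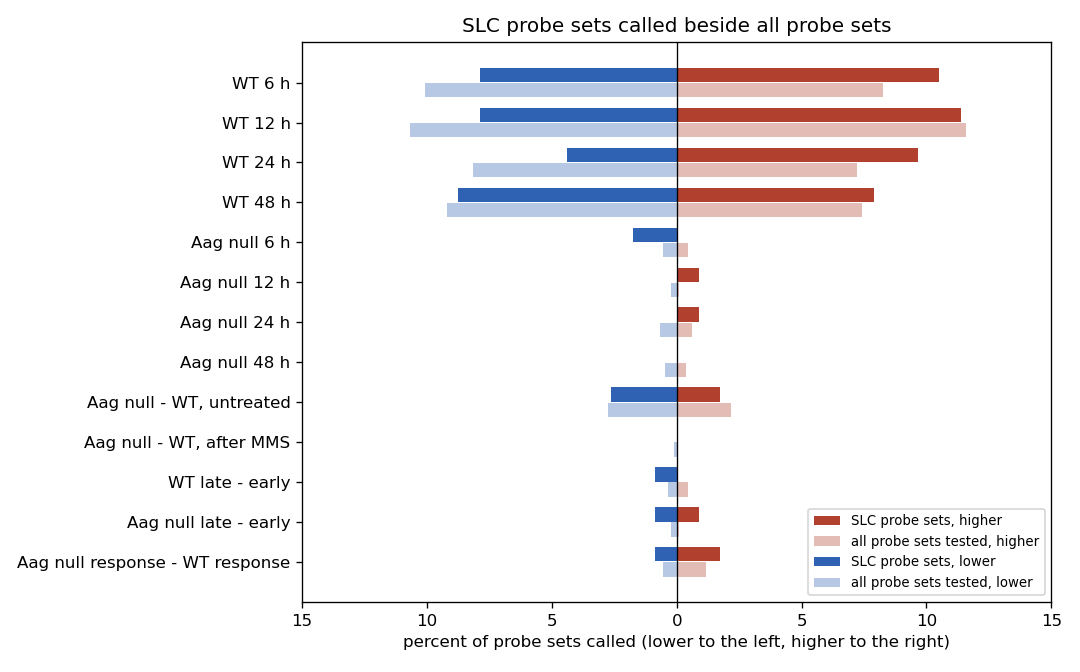
Horizontal bars give the percent of the 114 carrier probe sets (dark) and of all 7261 probe sets (light) called higher (red, to the right) or lower (blue, to the left) in each of 13 comparisons. The bars are longest in the 4 WT responses, where carriers and all probe sets have similar shares.

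With the array set from the 9 sense controls in the model, chosen after seeing the data, the WT counts were 5 higher and 2 lower at 6 h, 5 and 1 at 12 h, 7 and 1 at 24 h, and 5 and 0 at 48 h. The share of all probe sets called, in either direction, was then 1.89%, 3.11%, 3.57% and 3.32%. Of the 78 WT changes called without the term, 14 stayed called with it, 10 of them higher and 4 lower, and the members behind them were Slc5a6, Slc20a1, Slc25a47, Slc37a4, Slc46a1, Slc25a5 and Slc22a18. Over all 13 comparisons, 93 member values were called, 24 stayed called with the term, 32 stayed called whichever single array was left out, and 14 did both. None changed sign in any alternative that was run. In the 5 high-set arrays, 3 carrier probe sets (Slc16a8, Slc27a1 and Slc44a4) lay below all the other arrays and 1 (Slc23a3, probe set 161149_r_at) above them. These are 2.63% and 0.877% of the carriers, against 3.02% and 2.73% of all probe sets. Such full separation does not measure the effect of the set, since 69 of the 93 called values were lost with the term. The 3 untreated WT arrays lay below all the other 25 arrays for Slc5a6, Slc38a4 and Slc27a1 and above them for Slc25a5 (100619_r_at), Slc46a1 and Slc44a1, so 3 probe sets each way, against 1.98% and 2.84% of all probe sets.

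**Figure D2:**
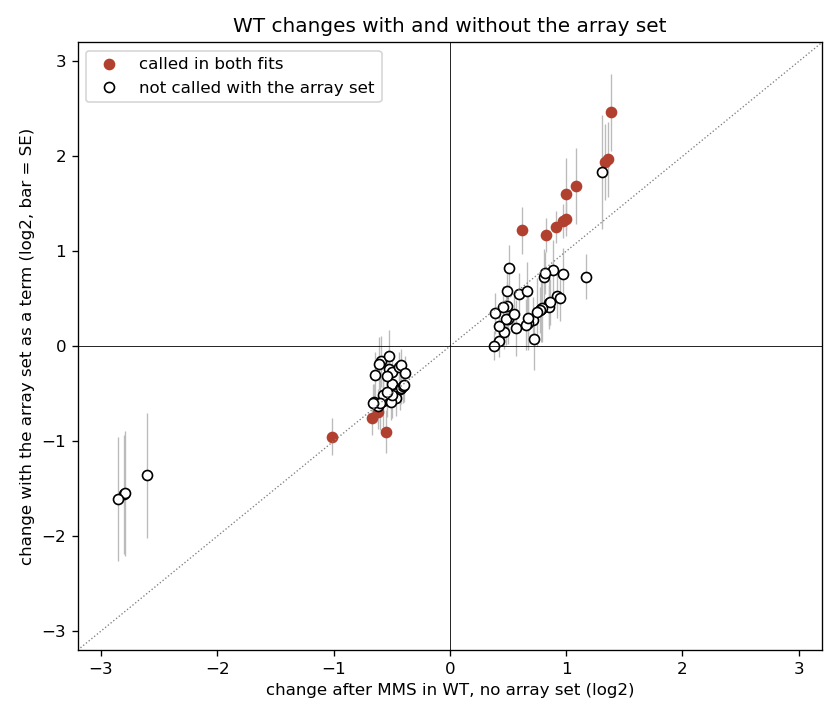
Each point is 1 of the 78 WT changes called without the array set, with the log2 change without the term on the horizontal axis and with the term on the vertical axis; vertical bars are standard errors and the dotted line marks equal changes. Filled points, 14 in all, were called in both fits, and the 4 open points at the far left are the Slc23a3 probe set.

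**Figure D3:**
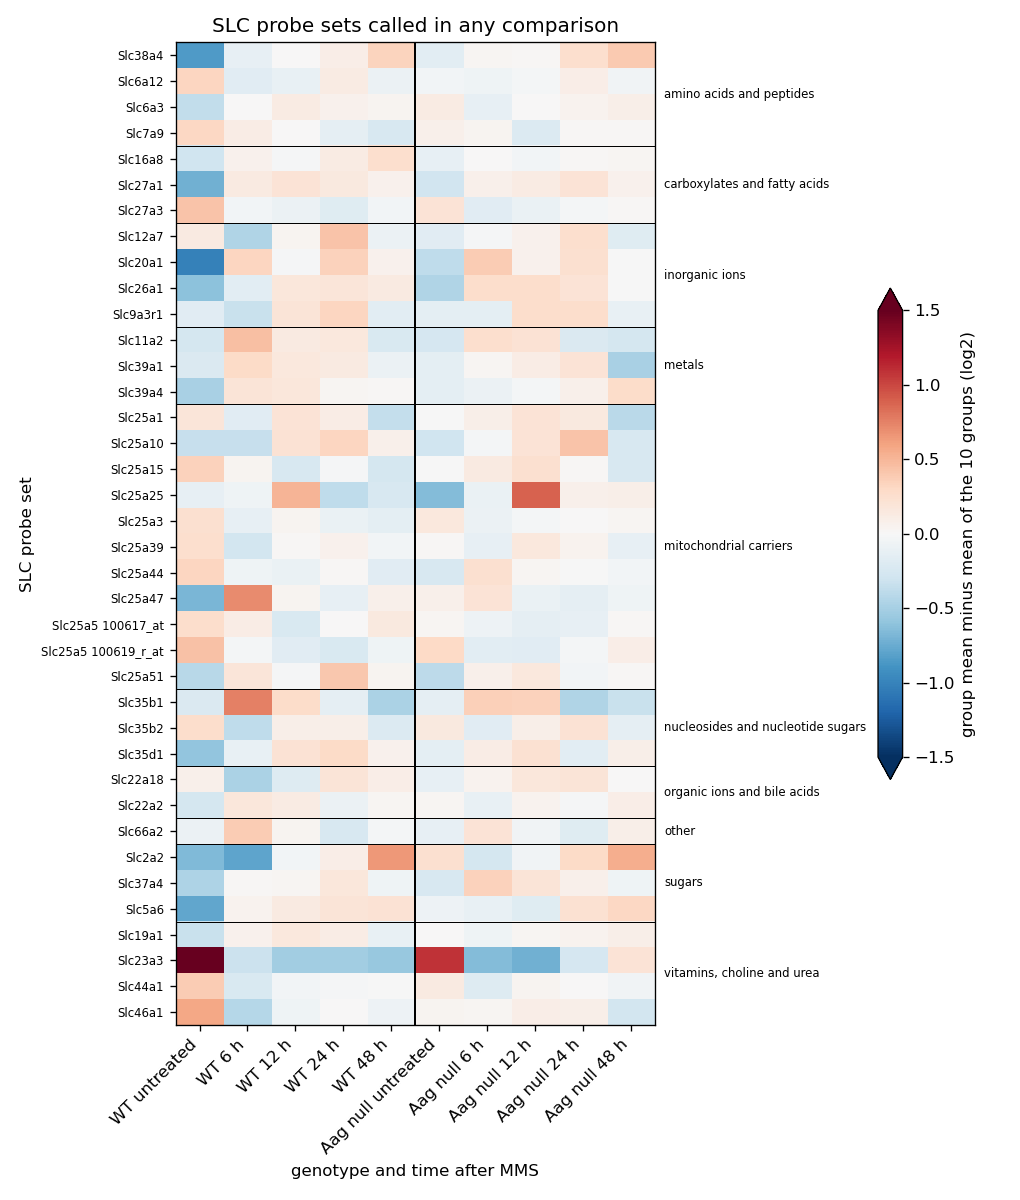
Columns are the 10 groups and rows the 38 carrier probe sets called in any comparison, by substrate class; colours give the group mean minus the mean of the 10 groups (log2), red higher and blue lower, with values beyond 1.5 at the end of the scale. The untreated WT column holds the deepest colours for Slc5a6, Slc20a1 and Slc38a4, and Slc23a3 is high in both untreated groups.

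In the class of vitamin, choline and urea carriers, 9 probe sets of 7 genes were kept, 3 fell in each WT response, and 1 rose, at 12 h. The 3 that fell were each time Slc46a1, Slc44a1 and 1 of the 2 Slc23a3 probe sets. Among all probe sets, 7.2% to 11.6% rose and 8.17% to 10.7% fell in the WT responses. These shares also stand beside the counts of the other classes below. Slc46a1, the proton-coupled folate carrier, read 5.71, 5.80 and 5.72 in untreated WT arrays. It read 4.79 and 4.66 at 6 h, 5.03, 5.13 and 5.12 at 12 h, 5.32 and 5.01 at 24 h, and 5.10 and 5.06 at 48 h. Every treated WT array lay below every untreated one. The changes were -1.02 (SE 0.13, 2.02-fold lower, adjusted p = 7.69e-05) at 6 h, and -0.65, -0.57 and -0.66 (adjusted p = 0.00165) at 12, 24 and 48 h. At 24 h the call was lost without WT 24 h replicate 2 (adjusted p = 0.15). With the array set in the model the 6 h change of Slc46a1 was -0.95 (adjusted p = 0.01) and those at 12, 24 and 48 h were -0.59, -0.51 and -0.60, no longer called (adjusted p = 0.097, 0.17 and 0.098). Untreated Aag null arrays read 5.06, 5.27, 5.31 and 5.15, and treated Aag null arrays ran from 4.71 to 5.53, with no call in any Aag null response.

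Slc44a1, a choline-like carrier, read 4.92, 4.94 and 4.97 in untreated WT and fell by 0.61 (SE 0.12, adjusted p = 0.00157) at 6 h. Its changes at 12, 24 and 48 h were -0.42, -0.41 and -0.39, and with the array set in the model the 4 were -0.63, -0.44, -0.42 and -0.41, not called (adjusted p from 0.077 to 0.22). The 24 h call was lost without either 24 h array (adjusted p = 0.057 and 0.28), and the 48 h call without WT untreated replicate 2 or 3 or either 48 h array (adjusted p from 0.052 to 0.14). Slc19a1, the reduced folate carrier, had 1 of its 2 probe sets higher at 12 h, at 5.24, 4.93 and 4.96 against 4.20, 4.83 and 4.63. That change was 0.49 (SE 0.15, adjusted p = 0.0258), lost with the array set (0.43, adjusted p = 0.43), without WT untreated replicate 1 (adjusted p = 0.18) and without WT 12 h replicate 1 (adjusted p = 0.13).

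Slc23a3, a member of the ascorbate carrier family with no settled substrate, was measured by 2 probe sets that differed. On 161149_r_at, untreated WT arrays read 7.78, 8.35 and 7.13, and treated WT arrays read 4.04 and 6.26 at 6 h, 4.93, 4.88 and 5.04 at 12 h, 4.73 and 5.19 at 24 h, and 5.19 and 4.62 at 48 h. Untreated Aag null arrays read 5.81, 6.06, 7.10 and 7.27, and the 2 highest of these are the high-set arrays. The WT changes were -2.61, -2.81, -2.80 and -2.85 (SE 0.49, 0.44, 0.49 and 0.49) and the adjusted p was between 0.000146 and 0.00122. With the array set in the model they were -1.36, -1.56, -1.55 and -1.61, with adjusted p between 0.18 and 0.33. The Aag null change at 6 h was -1.73 (adjusted p = 0.0454), lost without the female-typical arrays (adjusted p = 0.25) and without any 1 of 5 arrays, Aag untreated replicates 3 and 4 and the 3 at 6 h (adjusted p from 0.07 to 0.2). The other Slc23a3 probe set, 98800_at, read 4.18 to 4.67 in untreated WT and 4.24 to 4.89 in treated WT, was called in no comparison, and correlated at -0.19 with the first over the 28 arrays.

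In the sugar class, which holds 11 kept probe sets of 10 genes, 1 to 2 rose and 0 fell in the WT responses. Slc5a6 sits here by family number but carries biotin, pantothenate and lipoate. It read 4.37, 4.50 and 4.14 in untreated WT. After MMS it read 5.17 and 5.15 at 6 h, 5.20, 5.45 and 5.07 at 12 h, 5.26 and 5.35 at 24 h, and 5.31 and 5.34 at 48 h, all above every untreated WT array. The rises were 0.83 (SE 0.14), 0.91 (SE 0.12), 0.97 (SE 0.14) and 0.99 (SE 0.14), or 1.77- to 1.99-fold, with adjusted p between 3.29e-05 and 0.000449. They kept their calls whichever single array was left out and were 1.17, 1.25, 1.32 and 1.34 with the array set in the model, each still called. The 6 h call was lost in 2 of 12 alternatives other than leaving out an array, array weights and the fit of only the groups compared. Untreated Aag null arrays already read 4.88, 4.85, 5.21 and 5.20, above untreated WT by 0.70 (SE 0.11, 1.62-fold, adjusted p = 0.00282), so the groups did not overlap. Within the 5 high-set arrays alone that difference was 0.87 and not called (adjusted p = 0.11). Aag null arrays read 4.93, 4.99 and 5.06 at 6 h, 4.97 and 4.88 at 12 h, 5.23, 5.19, 5.53 and 5.41 at 24 h, and 5.35, 5.44 and 5.47 at 48 h. No Aag null response of Slc5a6 was called without the array set (with it, 0.48 and adjusted p = 0.038 at 24 h), and the arrays at 24 and 48 h exceeded all those at 6 and 12 h, by 0.42 (SE 0.09, adjusted p = 0.0397). That last call was lost without the female-typical arrays (adjusted p = 0.065) and without any of 10 of the 12 arrays, all but Aag 24 h replicates 1 and 2 (adjusted p from 0.053 to 0.27). The Aag null response was smaller than the WT response by 0.79 on average, a direct test of the difference (-0.79, SE 0.13, adjusted p = 0.00607).

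Slc2a2, the main glucose carrier of the hepatocyte membrane, read 6.14, 5.36 and 6.49 in untreated WT and 7.11 and 7.51 at 48 h. That rise was 1.31 (SE 0.41, 2.48-fold, adjusted p = 0.0313). The call was lost without WT untreated replicate 1 or 2 or either 48 h array (adjusted p from 0.05 to 0.22) and with the array set (1.83, adjusted p = 0.097). At 6 h the 2 WT arrays of Slc2a2 read 6.82 and 4.92, the widest gap among its groups of 2. Slc37a4, the glucose 6-phosphate carrier of the endoplasmic reticulum, read 7.28, 7.45 and 7.61 in untreated WT and 8.05 and 8.09 at 24 h, a rise of 0.62 (SE 0.20, adjusted p = 0.0405). That call was lost without WT untreated replicate 1 or 2 or either 24 h array, with adjusted p from 0.077 to 0.21. With the array set in the model Slc37a4 was called higher at all 4 WT times, by 1.08, 1.08, 1.22 and 0.99, and at 6 h in Aag null by 0.89 (adjusted p = 0.017). Its untreated Aag null arrays read 7.34 and 7.38 in the low set and at least 7.91 in the high set.

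Among the inorganic ion carriers, 13 probe sets of 13 genes were kept, 1 to 3 rose in each WT response, and 1 fell, at 6 h. Slc20a1, a sodium-coupled phosphate carrier, read 4.14, 3.41 and 4.15 in untreated WT. It read 5.66 and 4.80 at 6 h, 4.74, 5.17 and 4.77 at 12 h, 5.35 and 5.18 at 24 h, and 4.84 and 5.12 at 48 h. All treated WT arrays lay above the untreated ones. The rises were 1.33 (SE 0.29, 2.52-fold, adjusted p = 0.00311), 1.00 (adjusted p = 0.00791), 1.36 (2.57-fold, adjusted p = 0.00257) and 1.08 (adjusted p = 0.0127), and with the array set 1.94, 1.60, 1.97 and 1.69, each called. Calls of Slc20a1 were lost without WT 6 h replicate 1 at 6 h (0.90, adjusted p = 0.054), without WT untreated replicate 2 at 12 h (0.75, adjusted p = 0.057) and 48 h (0.83, adjusted p = 0.063), and without WT 48 h replicate 2 at 48 h (adjusted p = 0.13). Untreated Aag null arrays read 4.46, 4.02, 4.93 and 4.76 and treated ones ran from 4.71 to 5.88, with no call.

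Slc26a1, a sulfate and oxalate exchanger, read 5.58, 4.44 and 5.14 in untreated WT and between 5.74 and 5.94 at 12, 24 and 48 h. The rises were 0.78, 0.79 and 0.75 (adjusted p = 0.0158, 0.0343 and 0.0438), and with the array set 0.39, 0.41 and 0.36, not called. Without WT untreated replicate 2 none of these 3 was called (adjusted p = 0.12, 0.17 and 0.21). The 12 h call was also lost without WT 12 h replicate 2, the 24 h call without either 24 h array, and the 48 h call without WT untreated replicate 3 or either 48 h array. Slc12a7, a potassium-chloride cotransporter, fell by 0.59 (adjusted p = 0.0424) at 6 h, from 6.12, 5.83 and 6.09 to 5.63 and 5.22. It read 6.30 and 6.29 at 24 h, and the 6 h call was lost with the array set (-0.16), without WT 6 h replicate 2 (adjusted p = 0.23) and without WT untreated replicate 1 or 3. Slc9a3r1, the adaptor named above, rose by 0.49 at 24 h (adjusted p = 0.0498), lost with the array set (0.58, adjusted p = 0.22) and without WT untreated replicate 2 or either 24 h array (adjusted p from 0.19 to 0.21).

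Of the amino acid and peptide carriers, 21 probe sets of 20 genes were kept. In the WT responses 1 to 2 rose and 0 to 2 fell, and their median change lay between -0.05 and 0.07, against 0.02 to 0.05 for all probe sets. Slc38a4, a sodium-coupled neutral amino acid carrier typical of liver, read 8.36, 8.54 and 8.66 in untreated WT. It read 9.44 and 9.03 at 6 h, 9.46, 9.44 and 9.21 at 12 h, 9.35 and 9.57 at 24 h, and 9.55 and 9.84 at 48 h. The groups did not overlap, and the rises were 0.72 (adjusted p = 0.00962), 0.85, 0.94 and 1.17 (SE 0.18, 2.26-fold, adjusted p = 0.000261). The 6 h call was lost without WT 6 h replicate 1 (0.51, adjusted p = 0.094). With the array set the 4 rises were 0.28, 0.41, 0.50 and 0.73, with adjusted p between 0.099 and 0.63. Untreated Aag null arrays read 9.73, 9.12, 8.92 and 9.05, above untreated WT by 0.69 (SE 0.15, adjusted p = 0.0135), a call lost without WT untreated replicate 1 (0.61, adjusted p = 0.055) and with the array set (0.47, adjusted p = 0.12).

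Slc6a12, the betaine and GABA carrier, read 5.67, 5.33 and 5.65 in untreated WT and changed by -0.50 at 6 h, -0.44 at 12 h and -0.42 at 48 h, with adjusted p of 0.00707, 0.00556 and 0.021. These 3 changes were -0.28, -0.22 and -0.20 with the array set, not called, and the 48 h call was lost without WT untreated replicate 1 or 3 or WT 48 h replicate 1 (adjusted p from 0.057 to 0.2). Slc7a9, the light subunit of the cystine carrier, fell by 0.54 at 48 h (adjusted p = 0.0346), whereas its heavy subunit partner Slc3a1 read 5.39, 6.04 and 5.43 in untreated WT and 5.72 and 5.70 at 48 h and was not called. The Slc7a9 call was lost with the array set (-0.31) and without WT untreated replicate 1 or either 48 h array. Slc6a3, the dopamine carrier, was 0.49 higher at 12 h (adjusted p = 0.0462), lost with the array set (0.29) and without any 1 of its 6 arrays (adjusted p from 0.06 to 0.18). The subunits of the large neutral amino acid carrier were not called: Slc7a5, the light subunit, read 5.64 to 6.03 in untreated WT and 5.37 to 5.99 in treated WT, and Slc3a2, the heavy subunit, read 5.72 to 6.17 and 5.80 to 6.35.

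Among the 7 fatty acid and carboxylate carriers, Slc27a1, a fatty acid transport protein, rose at all 4 WT times. It read 4.54, 4.45 and 4.60 in untreated WT, 5.10 and 5.67 at 6 h, 5.53, 5.40 and 5.44 at 12 h, 5.25 and 5.53 at 24 h, and 5.56 and 5.06 at 48 h. The rises were 0.85, 0.92 (SE 0.16, 1.90-fold, adjusted p = 0.000314), 0.86 and 0.78, and with the array set they were 0.46, 0.53, 0.46 and 0.38 and not called. The call was lost without WT 24 h replicate 2 at 24 h (adjusted p = 0.073) and without WT 48 h replicate 1 at 48 h (adjusted p = 0.12). In Aag null liver Slc27a1 read 5.29 and 5.02 in the low-set untreated arrays and 4.84 and 4.68 in the high-set ones. Slc27a3, of the same family, changed by -0.52 at 12 h and -0.61 at 24 h (adjusted p = 0.0413 and 0.0443), calls lost with the array set (-0.10 and -0.19), without WT untreated replicate 2 (adjusted p = 0.2 and 0.18), and without any array of the treated group. The liver members Slc27a2 and Slc27a5, which activate very long chain fatty acids and bile acids, were not called: Slc27a5 read 9.22, 9.15 and 9.18 in untreated WT and 8.17 to 9.16 in treated WT. Slc27a2 read 7.22, 7.16 and 6.86 in untreated WT and 7.22 and 5.83 at 6 h. Slc16a8, a lactate carrier, rose by 0.42 at 24 h and 0.55 at 48 h (adjusted p = 0.0452 and 0.00982), and its 5 high-set arrays, at 3.91 to 4.32, all lay below the other 23. Those 2 calls were lost with the array set (0.21 and 0.34), without WT untreated replicate 2 or either 24 h array at 24 h (adjusted p from 0.16 to 0.23), and without WT 48 h replicate 1 at 48 h (0.44, adjusted p = 0.12).

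The mitochondrial carriers, 20 probe sets of 16 genes, moved in both directions in WT, with 2 higher and 2 lower at 6 h, 2 and 4 at 12 h, 2 and 1 at 24 h, and 1 and 5 at 48 h. Slc25a47, a liver-restricted carrier of the inner membrane, read 7.37, 8.26 and 8.57 in untreated WT and 9.37 and 9.54 at 6 h. That rise was 1.39 (SE 0.34, 2.61-fold, adjusted p = 0.00753), kept its call whichever array was left out, and was 2.46 with the array set (adjusted p = 0.0014). Of 12 alternatives other than leaving out an array, 5 lost the call, among them array weights and the fit of only the groups compared. At later times the WT arrays of Slc25a47 read 8.44 to 9.25 and were not called without the array set, while with it they were 1.80, 1.64 and 1.83 higher and called. Slc25a5, the adenine nucleotide translocase of growing cells, fell at all 4 WT times on probe set 100619_r_at. It read 5.56, 5.41 and 5.39 in untreated WT and 4.58 to 5.19 after MMS. The changes were -0.47, -0.61 (SE 0.11, adjusted p = 0.000517), -0.67 (SE 0.13, adjusted p = 0.00111) and -0.50, and those at 12 and 24 h stayed called with the array set (-0.70 and -0.75), while those at 6 and 48 h were then -0.55 and -0.59 and not called (adjusted p = 0.16 and 0.088). Its 6 h call was lost without WT 6 h replicate 1 (-0.27, adjusted p = 0.18) and its 48 h call without WT 48 h replicate 2 (-0.38, adjusted p = 0.16). In Aag null liver this probe set fell by 0.46 at 6 h (adjusted p = 0.0438), from 5.33, 5.37, 5.22 and 5.32 to 4.76, 4.94 and 4.87, a call lost without Aag untreated replicate 3 or 4 or any 6 h array (adjusted p from 0.07 to 0.16) and without the female-typical arrays (adjusted p = 0.13). Slc25a5 had 2 further probe sets: 100617_at fell by 0.50 at 12 h (adjusted p = 0.00834), lost with the array set (-0.40, adjusted p = 0.36) and without WT untreated replicate 1 (adjusted p = 0.059), and 100618_f_at was not called and correlated at -0.03 with 100619_r_at over the 28 arrays.

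Slc25a25, a calcium-dependent carrier of ATP-magnesium and phosphate, was the member called in Aag null liver at 12 h. Untreated Aag null arrays read 6.96, 7.09, 7.48 and 7.31, the 12 h arrays read 8.44 and 9.06, and the rise was 1.54 (SE 0.30, 2.90-fold, adjusted p = 0.0245). It was 1.72 within the low set alone (adjusted p = 0.035). Without the female-typical arrays its adjusted p was 0.069, and without either 12 h array, replicate 1 or 2, it was 0.18 or 0.54. In WT, Slc25a25 read 7.61, 7.48 and 8.10 before MMS, 7.15 and 8.44 at 6 h, and 7.98, 8.61 and 8.51 at 12 h, with overlap and no call. Slc25a10, the dicarboxylate carrier, was higher at 12 and 24 h in WT by 0.57 and 0.67 (adjusted p = 0.0399 and 0.0403) and at 24 h in Aag null by 0.73 (SE 0.17, adjusted p = 0.0337). Its Aag null arrays read 7.18, 7.12, 6.54 and 7.02 untreated and 7.52, 7.78, 7.73 and 7.75 at 24 h. These 3 rises were 0.19, 0.30 and 0.54 with the array set, not called, and the WT calls were lost without WT untreated replicate 2 (adjusted p = 0.24 and 0.19) or any array of the treated group. The Aag null call of Slc25a10 was lost without the female-typical arrays (adjusted p = 0.57) and without Aag untreated replicate 3 or 4 or any 24 h array (adjusted p from 0.054 to 0.14).

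Slc25a15, the ornithine carrier of the urea cycle, changed by -0.58 at 12 h and -0.60 at 48 h in WT (adjusted p = 0.0192 and 0.0353), from 7.30, 7.23 and 7.38 to 6.47, 6.75 and 6.95 and to 6.48 and 6.92. Its 2 arrays at 6 h read 7.42 and 6.60. Both changes, -0.57 and -0.60 with the array set, were then not called (adjusted p = 0.32 and 0.26). The 12 h call was lost without WT untreated replicate 3 or WT 12 h replicate 1 (adjusted p = 0.11), and the 48 h call without any untreated array or WT 48 h replicate 1 (adjusted p = 0.32). Slc25a44, a carrier of branched-chain amino acids, read 5.76, 5.36 and 5.36 in untreated WT and 4.86, 5.03, 4.94 and 4.90 in untreated Aag null, a difference of -0.56 (SE 0.13, adjusted p = 0.0167) that stayed called with the array set (adjusted p = 0.047) but not without WT untreated replicate 1 (-0.43, adjusted p = 0.081). Its WT changes of -0.43 at 12 h and -0.49 at 48 h were as large with the array set, at -0.45 and -0.52, but no longer called (adjusted p = 0.33 and 0.22). Those calls were also lost without that same array (adjusted p = 0.17 and 0.13), and without WT 12 h replicate 1 or 2 or WT 48 h replicate 1. Slc25a51, the mitochondrial NAD carrier, was higher at all 4 WT times on probe set 161951_f_at, by 0.59, 0.39, 0.82 (SE 0.15, adjusted p = 0.000844) and 0.46. Its 24 h arrays read 4.91 and 4.88 against 4.02, 4.24 and 3.99, and with the array set the 4 rises were 0.55, 0.35, 0.77 and 0.41, not called (adjusted p from 0.057 to 0.47). Without single arrays the 24 h call of Slc25a51 was kept, while the 6 h call was lost without WT 6 h replicate 1 (adjusted p = 0.073), the 12 h call without WT untreated replicate 1 or 3 or any 12 h array, and the 48 h call without WT untreated replicate 1 or 3 or WT 48 h replicate 2 (adjusted p = 0.42). The other Slc25a51 probe set, 97410_at, was brighter (mean 5.28 against 4.45 over all arrays) and was called in no comparison. Its WT changes were 0.13, -0.05, 0.12 and -0.30 at 6, 12, 24 and 48 h. Single falls were called for Slc25a39, linked to mitochondrial glutathione (6 h, -0.53), Slc25a1, the citrate carrier (48 h, -0.54), and Slc25a3, the phosphate carrier (48 h, -0.38), each lost with the array set (-0.24, -0.49 and -0.29). They were also lost without single arrays: WT untreated replicate 1 or WT 6 h replicate 2 for Slc25a39, any untreated array or WT 48 h replicate 2 for Slc25a1, and WT untreated replicate 1 or 2 or either 48 h array for Slc25a3. The Slc25a1 fall was on probe set 162358_i_at. Its other probe set, 94807_at, changed by 0.10 at 48 h in WT and was not called.

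Among the nucleoside and nucleotide sugar carriers, 9 probe sets of 8 genes were kept. Slc35b1, an ATP-ADP exchanger of the endoplasmic reticulum, was called between early and late times in both genotypes. In WT it read 6.75, 6.79 and 6.85 untreated, 7.81 and 7.74 at 6 h, 7.30, 7.25 and 7.34 at 12 h, 6.81 and 6.94 at 24 h, and 6.40 and 6.69 at 48 h. In Aag null liver it read 6.72, 7.27, 6.68 and 6.88 untreated, 7.57, 7.05 and 7.50 at 6 h, 7.53 and 7.19 at 12 h, 6.37, 6.33, 6.71 and 6.86 at 24 h, and 6.69, 6.62 and 6.72 at 48 h. In each genotype, every array at 6 and 12 h lay above every array at 24 and 48 h. The late groups were lower than the early ones by 0.82 in WT (-0.82, SE 0.14, 1.77-fold, adjusted p = 0.00286) and by 0.75 in Aag null (-0.75, SE 0.12, 1.68-fold, adjusted p = 0.0122). Both calls rest on low-set arrays only, and within that set alone the adjusted p was 0.005 and 0.0083. The WT call was kept whichever array was left out but not on the values as deposited (adjusted p = 0.064). The Aag null call was lost without Aag 6 h replicate 1 (adjusted p = 0.055), without Aag 12 h replicate 1 (adjusted p = 0.13) and without the female-typical arrays (adjusted p = 0.065). Against untreated WT, Slc35b1 was higher by 0.98 at 6 h (SE 0.18, adjusted p = 0.00122) and by 0.50 at 12 h (adjusted p = 0.0332), not called with the array set (0.76 and 0.28), and the 12 h call was lost without any 1 of 5 arrays, all but WT untreated replicate 3 (adjusted p from 0.067 to 0.092).

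Between late and early times, 0 carriers were higher and 1, Slc35b1, lower in WT (0.454% and 0.358% of all probe sets), and 1 was higher and 1 lower in Aag null (0.0964% and 0.22%), the higher one being Slc5a6. Leaving out single arrays gave 1 to 7 in WT, the most without WT 6 h replicate 1, and 0 (without Aag 6 h replicate 1) to 2 in Aag null.

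**Figure D4:**
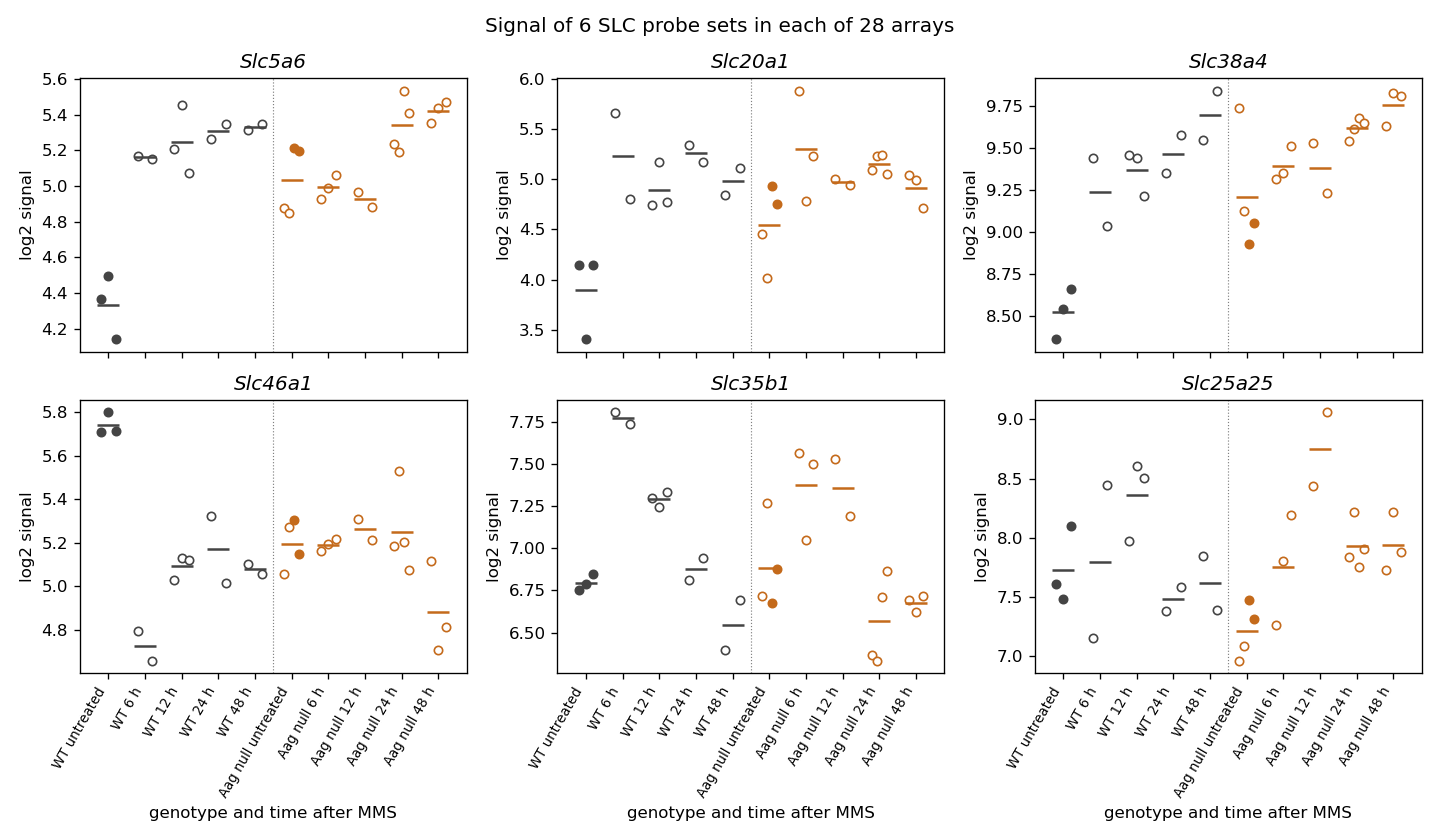
Points give the log2 signal of 6 carrier probe sets on each of 28 arrays, by genotype (grey WT, orange Aag null) and time after MMS, with a line at each group mean; filled points are the 5 arrays with high hybridization controls. Untreated WT arrays stand apart for Slc5a6, Slc38a4 and Slc46a1, while Slc35b1 is high at 6 and 12 h in both genotypes.

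Slc35d1, which carries UDP-glucuronic acid into the endoplasmic reticulum, read 6.81, 6.14 and 6.78 in untreated WT, 7.25, 7.57 and 7.33 at 12 h, 7.55 and 7.38 at 24 h, and 7.03 and 7.44 at 48 h. The rises were 0.81 (adjusted p = 0.0034), 0.89 and 0.66, and 0.73, 0.81 and 0.58 with the array set, no longer called. The 24 h call was lost without WT 24 h replicate 1 (adjusted p = 0.08) and the 48 h call without WT untreated replicate 2 or WT 48 h replicate 2. Slc35b2, the carrier of the sulfate donor PAPS, read 6.53, 6.15 and 6.45 untreated and 5.44 and 6.02 at 6 h, a fall of 0.65 on the log2 scale (-0.65, adjusted p = 0.0132) that rested on WT 6 h replicate 1 (-0.36 and adjusted p = 0.18 without it) and was not called with the array set (-0.30). Slc29a1, an equilibrative nucleoside carrier, read 8.13, 8.36 and 8.78 in untreated WT and 7.83 to 8.63 after MMS on probe set 95733_at and was not called.

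The metal carriers kept 13 probe sets of 9 genes, and 3 rose at 6 h and 1 at 12 h in WT. Slc39a4, a zinc importer, was higher on probe set 162284_r_at by 0.67 at 6 h and 0.65 at 12 h (adjusted p = 0.0273 and 0.0146), from 6.37, 6.77 and 6.87 to 7.02 and 7.67 and to 7.41, 7.30 and 7.27. Both calls were lost with the array set (0.25 and 0.23) and without WT untreated replicate 1 (adjusted p = 0.11 and 0.089), and each also without 1 treated array, WT 6 h replicate 2 or WT 12 h replicate 1, and the other Slc39a4 probe set, 97320_at, was not called and correlated at -0.22 with it over 28 arrays. Slc11a2, a proton-coupled iron carrier, was called on probe set 104451_at at 6 h (0.72, adjusted p = 0.0478), where the arrays read 5.33 and 4.38 against 4.39, 3.97 and 4.02. The groups overlapped, the change was 0.25 (adjusted p = 0.53) without WT 6 h replicate 1, and the call was also lost with the array set (0.08) and without WT untreated replicate 2 or 3. The other Slc11a2 probe set, 102642_at, changed by -0.10 at 6 h in WT and was not called. Slc39a1, a zinc importer, rose by 0.51 at 6 h (adjusted p = 0.0489) on 1 of 2 probe sets and lost the call with the array set (0.82, adjusted p = 0.1) and without any untreated array or WT 6 h replicate 1 (0.23, adjusted p = 0.42).

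Of the 10 probe sets of organic ion and bile acid carriers, Slc22a18, an organic cation carrier homologue from an imprinted region, fell by 0.55 at 6 h in WT (SE 0.17, adjusted p = 0.0255), from 7.05, 6.82 and 6.88 to 6.59 and 6.14. With the array set the change was -0.90 (adjusted p = 0.042), and the call was lost without WT untreated replicate 1 (adjusted p = 0.083) or WT 6 h replicate 2 (adjusted p = 0.21). Slc22a2, an organic cation carrier better known from kidney, was 0.43 higher at 6 h and 0.38 higher at 12 h (adjusted p = 0.0263 and 0.0218), from 3.88 to 4.08 in untreated WT. These levels lie near the array median, with the array set the changes were 0.05 and 0.01, and both calls were lost without WT untreated replicate 1 and without 1 treated array each, WT 6 h replicate 2 or WT 12 h replicate 1. Slc66a2, outside the classes, was 0.47 higher at 6 h (adjusted p = 0.0208), lost with the array set (0.15), without WT 6 h replicate 1 (adjusted p = 0.11) and without WT untreated replicate 1.

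Some WT responses that were not called in the first fit were called with the array set in the model; these genes were chosen after their values were seen. Slc31a1, the copper importer, was then higher on probe set 103845_at at 6, 12 and 24 h in WT, by 1.02, 0.85 and 0.85 (adjusted p = 0.026, 0.044 and 0.0497). Its WT arrays read 6.58, 6.32 and 6.85 before MMS and 7.11 and 7.03 at 6 h, and its untreated Aag null arrays 6.66 and 6.67 in the low set and 7.24 and 7.16 in the high set. Slc16a7, a monocarboxylate carrier, was then higher at 24 and 48 h in WT, by 1.49 and 1.63 (adjusted p = 0.018 and 0.009), with untreated Aag null arrays at 3.23 and 3.38 in the low set and 4.60 and 4.16 in the high set. The size given to the array set comes from these 2 pairs of untreated Aag null arrays.

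The following members, named for their brightness or their known role in liver, were called in no comparison, and their ranges are over the 28 arrays where no group is given. Slc6a13, a GABA and taurine carrier, ranged from 7.44 to 8.24, and Slc30a3, a zinc exporter, from 6.94 to 7.65. Slc1a2, the glial glutamate carrier that liver also uses, ranged from 5.69 to 6.29, and Slc48a1, the heme carrier, from 5.72 to 6.58. Slc4a1, the anion exchanger of red cells, read 3.59, 4.77 and 4.63 in untreated WT and 4.18 to 4.57 after MMS. Slc44a4, a choline carrier homologue that takes up thiamine pyrophosphate, read 5.38, 5.49 and 5.38 in untreated WT and 5.65 to 5.97 after MMS, so its WT groups did not overlap although no response was called. The remaining ones were Slc4a2 and Slc12a4, chloride carriers, at 5.34 to 6.11 and 5.55 to 6.60, Slc5a11, an inositol carrier, at 5.34 to 6.04, Slc10a3, an orphan of the bile acid family, at 4.67 to 5.24, and Slc1a4, a neutral amino acid exchanger, at 3.81 to 4.47.

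No carrier was called between the genotypes after MMS. Averaged over the 4 times, 0 carriers were higher and 0 lower in Aag null than in WT (0.0413% and 0.0964% of all probe sets), with 5 of the 114 at an unadjusted p under 0.05 in the limma fit, against 178 of all 7261 probe sets. The differences ran from -0.20 (Slc25a47) to 0.28 (Slc25a25), and the 95% interval lay within 0.5 of 0 for 107 of 114 probe sets and within 1 for all 114. Before MMS the 5 called carriers were Slc5a6 and Slc38a4, higher in Aag null, and Slc25a44, Slc46a1 and Slc6a12, lower. Slc46a1 was lower by 0.55 (-0.55, SE 0.11, adjusted p = 0.00734) with no overlap, kept its call whichever array was left out and with the array set (-0.51, adjusted p = 0.039). Of 13 alternatives other than leaving out an array, 5 lost this call. Slc6a12 was lower by 0.37 (-0.37, adjusted p = 0.0374), its arrays overlapped, and the call was lost with the array set (-0.26) and without WT untreated replicate 1 or 3 or Aag untreated replicate 1 or 2 (adjusted p from 0.081 to 0.13). Within the 5 high-set arrays, 3 WT and 2 Aag null, 0 of the 5 were called, with differences of 0.87 for Slc5a6, 0.47 for Slc38a4, -0.58 for Slc25a44, -0.51 for Slc46a1 and -0.26 for Slc6a12 (adjusted p = 0.11, 0.24, 0.23, 0.22 and 0.57). Because all untreated WT arrays are in the high set, these differences are the same as those with the array set in the model. Only the estimate of the spread differs, so the 2 fits are not separate checks.

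The mean Aag null response minus the mean WT response was called higher for 2 carriers and lower for 1 (1.16% and 0.551% of all probe sets). They were Slc25a44 (0.70, SE 0.15, adjusted p = 0.0205), Slc46a1 (0.67, SE 0.13, adjusted p = 0.01) and Slc5a6 (-0.79). All 3 stayed called with the array set from 9 controls. With the planned set from 18 controls Slc5a6 stayed called (-0.98, adjusted p = 0.0077), while Slc25a44 was 0.57 (adjusted p = 0.21) and Slc46a1 0.65 (adjusted p = 0.079). Without the female-typical arrays Slc25a44 was 0.69 and not called (adjusted p = 0.053). The Slc25a44 call was also lost without WT untreated replicate 1 (0.57, adjusted p = 0.068), and the count ran from 2 (without WT untreated replicate 1) to 7 (without WT 6 h replicate 2). This contrast shares its untreated arrays with the comparison of untreated livers.

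Because both 6 h replicate 1 arrays stood apart, every count was also taken without them, an alternative chosen after seeing the data that leaves 1 WT array at 6 h, assumed to vary like the other groups. The WT counts were then 33, 37, 24 and 25 carriers at 6, 12, 24 and 48 h, against 29.5%, 32.7%, 24.2% and 26.2% of all probe sets. The Aag null counts were 3, 4, 9 and 6, against 1.32%, 2.04%, 4.97% and 5.66%. The untreated comparison gave 10 (13.4% of all probe sets), the treated genotype comparison 0 (0.138%) and the interaction 6 (4.88%). Between late and early times WT gave 17 carriers (18.2%) and Aag null 1 (0.207%), Slc35b1 in both (-0.80 and -0.70). In that fit the 6 h calls in WT included Slc27a2 (-1.26, adjusted p = 0.00187), Slc27a5 (-1.01), Slc25a15 (-0.71) and Slc25a11, the oxoglutarate carrier (-0.75), all lower and all resting on the single remaining 6 h array. In Aag null liver Slc27a2 was lower at 6 h by 0.92 (-0.92, adjusted p = 0.0285) over 2 arrays, and Slc25a25 was higher at 12, 24 and 48 h by 1.54, 0.72 and 0.73 (adjusted p = 0.00163, 0.0276 and 0.0375).

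In all, 12 genes had more than 1 kept probe set, and no gene had probe sets called in opposite directions. Over the 28 arrays, the 2 probe sets of Slc6a2 correlated at 0.86 and those of Slc2a3 at 0.79. Those of Slc31a1, Slc25a1, Slc25a51 and Slc19a1 correlated between 0.45 and 0.49, and those of Slc39a1, Slc29a1, Slc23a3, Slc39a4 and Slc11a2 between -0.26 and -0.03. These values share arrays and scaling and are descriptions only.

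RefSeq promoter windows of 250 bases before the start (build GRCm38.p6) were matched for 83 of the 101 genes, 121 windows in all. The windows of Slc35b1 and Slc25a25 are shown because these genes carried the late against early difference called in both genotypes and the 12 h rise in Aag null liver. Capitals mark TGACG, the core of a cAMP response element, on either strand (CGTCA where it lies on the reverse strand), and in Slc25a25 the full element TGACGTCA, which holds the core on each strand.
Slc35b1, chr11:95384606-95384855 (+): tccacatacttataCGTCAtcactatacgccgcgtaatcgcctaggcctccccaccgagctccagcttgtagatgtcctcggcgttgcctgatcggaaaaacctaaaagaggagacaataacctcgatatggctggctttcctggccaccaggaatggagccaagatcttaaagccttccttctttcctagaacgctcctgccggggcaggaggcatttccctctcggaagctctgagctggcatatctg
Slc25a25, chr2:32424067-32424316 (-): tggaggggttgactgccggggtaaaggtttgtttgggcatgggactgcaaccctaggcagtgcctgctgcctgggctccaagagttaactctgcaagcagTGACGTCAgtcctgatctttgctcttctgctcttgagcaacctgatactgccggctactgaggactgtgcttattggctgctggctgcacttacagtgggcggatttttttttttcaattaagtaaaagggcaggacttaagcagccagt
The Slc35b1 window held 1 TGACG on the reverse strand and no TGACGTGG, the UPRE of the unfolded protein response, nor CCACG, a part of the ER stress element. The data do not tell which of the 3 Slc25a25 starts was used, and the other Slc25a25 windows held no TGACG. Searched on both strands, TGACG occurred in 22.3% of the carriers' windows and 17.8% of all windows, TGACGTCA in 0.826% and 1.55%, TGACGTGG in 0.826% and 0.563%, CCACG in 37.2% and 28.3%, CACGTG in 8.26% and 6.02%, CCAAT in 28.9% and 33.8%, TGATGNAA (N any base) in 1.65% and 3.45%, TTATGTAA in 0% and 0.819%, and AGAACA in 10.7% and 16.1%. TGACG lies within TGACGTCA and TGACGTGG, so these counts overlap.

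Of 19 kept probe sets of ATP-binding cassette genes, 4 were higher and 1 lower at 6 h in WT, 5 and 0 at 12 h, 2 and 0 at 24 h, and 3 and 1 at 48 h. A further list held 30 kept probe sets whose symbol starts with Atp1, Atp2, Atp6, Atp7 or Atp8, picked by name only. Its counts were 5 and 2, 6 and 3, 7 and 2, and 4 and 2. Among all probe sets, the shares higher and lower were 8.26% and 10.1% at 6 h and 11.6% and 10.7% at 12 h. They were 7.2% and 8.17% at 24 h, and 7.4% and 9.21% at 48 h. In the 4 Aag null responses together, 1 probe set of the Atp list and 0 of the cassette genes were called, with limma as above. The 3 Slco genes on the array had no kept probe set. In each of the Aag null responses, 0.0826% to 0.675% of all probe sets were called in each direction.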

How the data were processed

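Liver RNA of 28 mouse samples was hybridized to Affymetrix MG-U74Av2 arrays. The table holds, per the deposited values, log2 signals per probe set between 0.689 and 13.2; the log base was read from their range, and neither labels nor file header name the summarization method. The medians of the arrays differed by up to 0.215, above a limit of 0.1, so the values were quantile scaled. The 66 control probe sets were left out, and a probe set was kept where it exceeded the array's median on 2 or more arrays. All 10 groups were fitted together with limma 3.58.1 in R 4.3.3 (lmFit and eBayes, 18 residual degrees of freedom), with Benjamini-Hochberg adjustment over 7261 probe sets and calls at an adjusted p under 0.05. The number of arrays limits the precision.

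The members, gene lists and comparisons were chosen with earlier results of these data known. The rule for named genes took, per comparison, up to 8 called members in each direction with the largest change and no overlap (28 genes), the brightest member of each class and larger family (26), and the 20 kept of 34 listed liver carriers, 49 genes in all. Slc19a1, Slc22a2, Slc25a3, Slc39a1, Slc6a3, Slc25a11, Slc16a7, Slc31a1, Slc2a3 and Slc6a2 fall outside it and were named after their values were seen. Members were matched to RefSeq by gene ID, and all 114 probe sets had a match. The planned array set took all 18 hybridization controls and put 2 arrays (WT untreated replicates 1 and 2) in the high set; the set from the 9 sense controls used in the report, and leaving out both 6 h replicate 1 arrays, were chosen after seeing the data. Fits were tested on simulated data. Figures were drawn with matplotlib 3.10.9.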

Additional observations from a re-analysis of the deposited data

Results flagged for a closer look

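In groups of 4 arrays, 5 of 110 tests found an array far from the other 3 by Dixon's criterion, a share of 4.55%, where chance alone marks about 1 in 20. Slc25a1 (162358_i_at) read 7.3 in Aag null 24 h replicate 1 against 7.08 to 7.11 in the others. Slc48a1, the heme carrier, read 6.02 in the same array against 6.13 to 6.14. Slc6a13, a GABA and taurine carrier, read 7.54 in Aag null 24 h replicate 3 against 7.69 to 7.7. Slc3a1 read 5.4 in untreated Aag null replicate 4 against 5.61 to 5.63. Slc29a1 (161687_r_at) read 3.85 in Aag null 24 h replicate 2 against 3.96 to 3.97.

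For 3 carriers the Aag null response differed from the WT response in a direct limma test of the difference. It was -0.79 for Slc5a6, 0.7 for Slc25a44 and 0.67 for Slc46a1.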

How the results depend on the processing

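Each count below is the number of carrier probe sets called, in the order WT 6, 12, 24 and 48 h, then Aag null, where not named; the main counts were 21, 22, 16 and 19, then 2, 1, 1 and 0, with 5 between untreated genotypes, 1 and 2 between late and early times in WT and Aag null, and 3 for the difference of responses. With the planned array set as a term the WT counts were 8, 7, 4 and 5, Aag null 24 h 2, untreated genotypes 1 and the difference of responses 1. Within 1 planned set they were 8, 7, 5 and 7, Aag null 6 h 4 and 24 h 4, untreated genotypes 1 and difference of responses 1. With the set from 9 controls as a term they were 7, 6, 8 and 5, Aag null 6 h 1 and 24 h 2, and WT late against early 3. Within 1 such set, Aag null 6 h gave 1, 24 h 3, untreated genotypes 0 and WT late against early 3. Array weights gave 0 at WT 6 h, 4 at WT 48 h, 27, 14, 10 and 14 in Aag null, 35 in Aag null late against early, and 0 for untreated genotypes, WT late against early and the difference of responses. The share of all probe sets called with array weights is not given here, so these counts are not read as results about carriers. With only the groups compared in the fit, WT 6 h gave 0, 24 h 8 and 48 h 5, and Aag null 6, 12 and 24 h and untreated genotypes 0.

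Without both 6 h replicate 1 arrays, WT gave 33 at 6 h and 37 at 12 h, Aag null 4, 9 and 6 at 12, 24 and 48 h, untreated genotypes 10, late against early 17 in WT and 1 in Aag null, and the difference of responses 6. Values as deposited gave 5 and 3 in Aag null at 6 and 24 h, and 0 and 1 for late against early. Median centring gave 0 and 1 for late against early, no brightness filter 0 at Aag null 6 h and 1 for Aag null late against early, and the brightest probe set per gene 0 at Aag null 6 h. Without the female-typical arrays, Aag null gave 0, 0 and 0 at 6, 12 and 24 h, and late against early 2 in WT and 0 in Aag null.

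Leaving out single arrays gave 14 to 30, 13 to 26, 7 to 17 and 9 to 14 in WT, 0 to 5, 0 to 3, 0 to 8 and 0 to 7 in Aag null, 2 to 7 for untreated genotypes, 1 to 7 and 0 to 2 for late against early, and 2 to 7 for the difference of responses.

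Same-numbered deviations correlated between 0.23 and 0.36 at WT 6 h and 0.15 and 0.19 at WT 24 h, with 2 pairs each and every array best with its own number. They lay between -0.28 and 0.03 at WT 12 h, -0.26 and -0.16 at WT 48 h, and, in Aag null, -0.39 and 0.15, -0.15 and -0.10, -0.25 and 0.08, and -0.08 and 0.07. No comparison with 3 or more pairs had every correlation above 0.1, so the numbers were not taken as pairing the arrays. With the replicate block, Aag null 6 h gave 0 and Aag null late against early 1, and the WT counts were 19, 20, 11 and 13. Of the 93 called values, 73 stayed called with the block, and none changed sign under any alternative run.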
